A study of Mus musculus with 10 samples.

Results

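Interferon-stimulated genes are the antiviral and antimicrobial genes that a cell switches on when an interferon reaches its surface. A list of 43 of them was followed through mouse livers carrying a follistatin vector or a GFP vector. Each member was measured by the transcript cluster, the probe group of an Affymetrix whole-transcript array, that was listed with that 1 symbol, and by the brightest where there were several. Of the 43 listed genes, 37 were measured, among 22180 genes in all. Oas1a, Ifi47, Tgtp1, Gbp2 and Dtx3l lay on clusters listed with further genes, and no cluster was listed for Ifi44. The rule that picks the cluster of a member uses no difference between groups. The list itself was chosen with earlier results of these data known, so its counts may not be independent of them.

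The 10 arrays came from livers of fasted male mice given an adeno-associated virus about 2 weeks before. Its TBG promoter is active in hepatocytes, and it carried either GFP as the control or Fst288. Fst288 is a form of follistatin, a protein that cells secrete and that neutralises activins and their relatives. Wild-type livers of mice fed a high-fat diet filled 6 arrays, 3 with GFP (HFD GFP) and 3 with Fst288 (HFD FST288). Livers labelled LTKO were represented by 2 arrays with GFP (LTKO GFP) and 2 with Fst288 (LTKO FST288). The labels neither spell out LTKO nor state the diet of those mice. In the field LTKO stands for a liver knockout of Irs1, Irs2 and Foxo1 together. Genotype and stated diet change together between HFD and LTKO livers and cannot be told apart. All 4 groups carried a virus, and no liver without one was analysed here. Ages are not given in the sources used here. Whether every array is a different mouse is not stated, so the p-values rest on the spread between samples, which may be technical.

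Type I interferons bind the receptor chains Ifnar1 and Ifnar2, and their target genes often carry a DNA element called the ISRE in their promoters. Interferon gamma uses another receptor, and its targets often carry an element called GAS; the immunity-related and guanylate-binding GTPases are best known as targets of interferon gamma. In the liver both hepatocytes and resident macrophages, the Kupffer cells, respond to interferon.

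The promoters of 31 of the 43 listed genes were found in the RefSeq table of assembly GRCm38.p6, as windows of 300 bases that began 250 bases before the transcription start. The letters GAAA, any 2 bases and GAAA again, used here as an ISRE, were present on either strand in 18 of the 31 (58.1%), against 3.99% of 27025 genes with a window. The letters TTC, any 3 bases and GAA, used as a GAS, were present in 9 of the 31 (29.0%), against 9.55% of all genes. Bst2, Gbp7, Igtp, Irgm2, Oas1a and Tgtp1 held both, which is 19.4% of the matched members and 0.540% of all genes. A match is a run of letters and not a measured binding site.

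The 5 stretches below belong to genes on which the results turn. Ifit1, Bst2 and Gbp7 were among the members called lower in LTKO GFP livers, and Igtp and Irgm2 were far higher on 1 LTKO FST288 array than on any other. Each is written on the strand of its gene, and capitals mark the matches on either strand. In Bst2 the GAS match and a pair of ISRE matches overlap and are written as 1 run of capitals.
Ifit1, plus strand, chr19:34640769-34640888: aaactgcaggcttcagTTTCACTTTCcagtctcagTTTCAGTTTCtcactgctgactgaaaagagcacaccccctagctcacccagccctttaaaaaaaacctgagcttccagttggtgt
Bst2, minus strand, chr8:71537553-71537632: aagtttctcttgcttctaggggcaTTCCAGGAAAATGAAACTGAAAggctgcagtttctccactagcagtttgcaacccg
Gbp7, plus strand, chr3:142530216-142530335: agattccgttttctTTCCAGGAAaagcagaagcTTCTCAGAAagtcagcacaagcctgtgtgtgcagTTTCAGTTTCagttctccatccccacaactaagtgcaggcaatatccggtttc
Igtp, plus strand, chr11:58199476-58199555: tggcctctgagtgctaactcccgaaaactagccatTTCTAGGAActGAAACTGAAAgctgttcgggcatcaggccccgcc
Irgm2, plus strand, chr11:58214877-58214956: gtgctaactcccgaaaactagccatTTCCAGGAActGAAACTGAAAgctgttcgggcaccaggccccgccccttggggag
Both Ifit1 matches are ISREs read on the opposite strand. Gbp7 holds a pair of GAS matches followed by an ISRE match on the opposite strand. The stretches of Igtp and Irgm2 are nearly the same: 78 of 80 bases were identical when the last 80 bases before the start of Igtp were set against Irgm2 shifted by 30 bases.

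Some arrays stood apart from their group. LTKO FST288 replicate 2 carried more transcript of Kupffer cells: the summed level of 11 Kupffer and macrophage markers was 10.83 on the log2 scale, against 9.70 on replicate 1 and 9.0 to 9.57 on the other 8 arrays. Marco, a receptor of these macrophages, read 7.59 and 5.48 on the 2 arrays. The excess of LTKO FST288 replicate 2 was not confined to Kupffer markers. Its monocyte and neutrophil sum was 8.58 (6.56 to 7.42 elsewhere) and its B and plasma cell sum 5.45 (4.41 to 4.83 elsewhere). Its T and NK cell sum was 6.69 (6.04 to 6.32 elsewhere) and its stellate cell sum 10.76 (10.02 to 10.44 elsewhere). HFD FST288 replicates 2 and 3 carried pancreatic acinar transcripts, with a summed level of 10 markers of 11.57 and 10.44, against 5.81 to 6.11 on the other 8. The hepatocyte markers were high on every array, with sums of 14.85 to 15.03. The label checks held: Fst was higher with the FST288 vector by 1.08 in HFD and 1.45 in LTKO livers, and Irs1, Irs2 and Foxo1 were lower in LTKO livers. In whole liver, fewer cells of a type and less RNA per cell cannot be told apart.

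**Figure D1:**
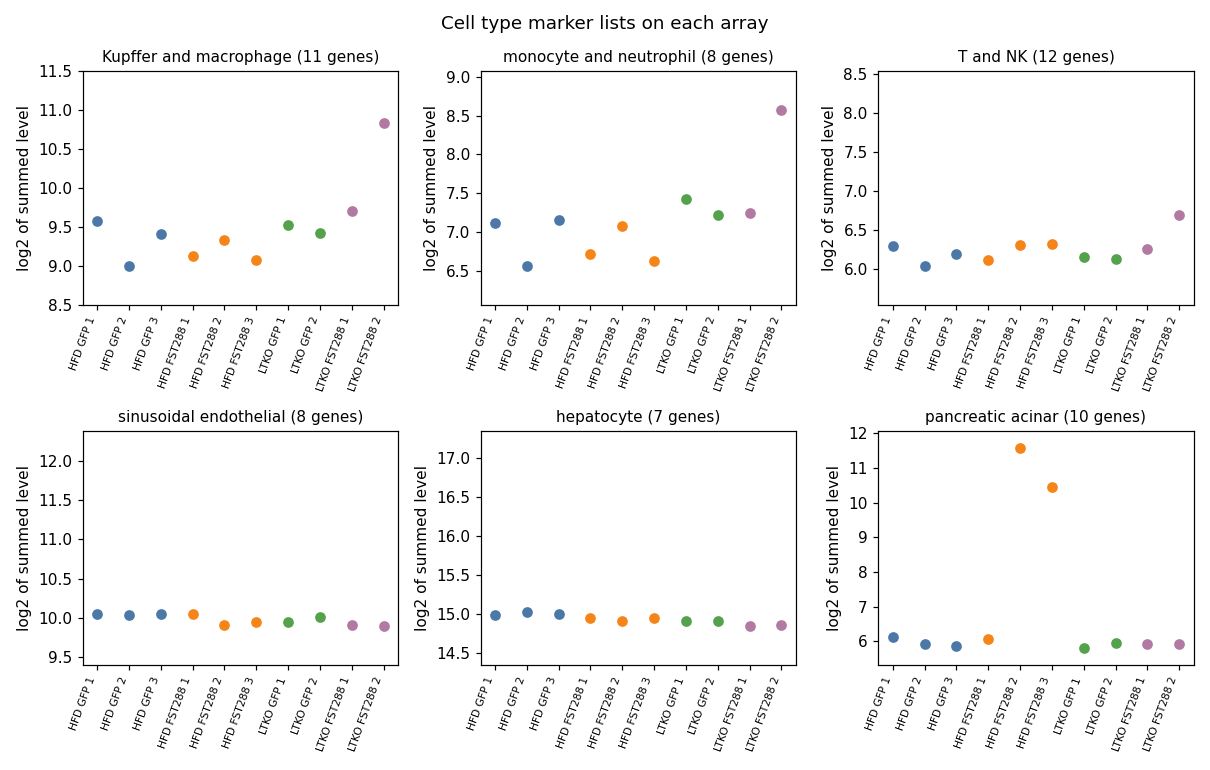
Log2 of the summed level of the markers of 6 cell types (vertical axes, each with its own range) on each of the 10 arrays (horizontal axes), coloured by group. LTKO FST288 replicate 2 lies at 10.83 for the Kupffer list, and HFD FST288 replicates 2 and 3 lie at 11.57 and 10.44 for the acinar list.

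Part of the interferon-stimulated genes were lower in LTKO than in HFD livers when both carried GFP. Of the 37 measured members, 11 were called lower and 0 higher (limma, Benjamini-Hochberg adjusted p under 0.05 over 22180 genes), which is 29.7% of the members, where 6.40% of all genes were called lower and 6.69% higher. The cytosolic RNA sensors Ifih1, Ddx58 and Dhx58, the RNA-binding Ifit1, the GTPase Gbp7, the ADP-ribosyltransferase Parp14 and the membrane tether Bst2 were among them. The median log2 difference of the members was -0.52, against 0.01 for all genes, and 34 of the 37 differences were below 0. On both LTKO GFP arrays 27 of the 37 members (73.0%) lay below all 3 HFD GFP arrays, as did 19.2% of all genes. Oas3 and Mx2 lay above all 3, as did 21.1% of all genes.

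**Figure D2:**
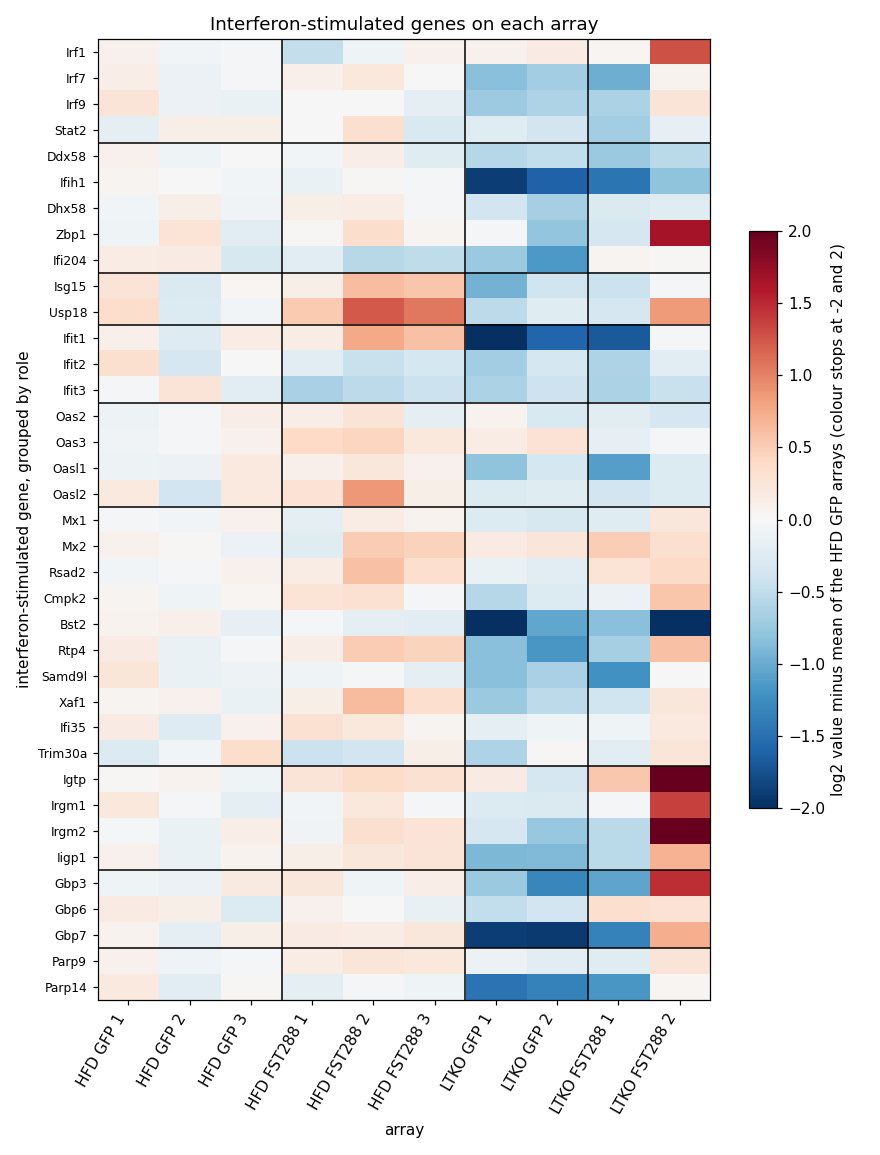
Log2 value of each of the 37 measured members (rows, grouped by role) on each of the 10 arrays (columns), minus the mean of the 3 HFD GFP arrays; blue is lower, red higher, and colours stop at -2 and 2. The LTKO GFP columns are mostly blue, with a median of -0.57 and -0.40 over the members, and LTKO FST288 replicate 2 is red for most GTPases.

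Centred on the HFD GFP mean, the median of the members was 0.08, -0.07 and 0.00 on the HFD GFP arrays and 0.10, 0.21 and 0.08 on the HFD FST288 arrays. It was -0.57 and -0.40 on the LTKO GFP arrays, and -0.40 and 0.22 on the LTKO FST288 arrays. The median of the members was thus lower on every LTKO array except FST288 replicate 2, while the median of all genes stayed between -0.01 and 0.01 on every array.

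Among the sensors, which detect viral nucleic acid and start the interferon response, 4 of 5 were called lower in LTKO GFP livers, as were 6.40% of all genes. Ifih1, which encodes a receptor for long double-stranded RNA, read 7.83, 7.77 and 7.71 on the HFD GFP arrays and 5.88 and 6.16 on the LTKO GFP arrays. The groups did not overlap, and the fitted difference was -1.75 (SE 0.16; limma adjusted p = 6.46e-06), a 3.36-fold lower level. This call held without any 1 of the 10 arrays. Ddx58, the sensor known as RIG-I, read 5.72, 5.54 and 5.64 on the HFD GFP arrays against 5.06 and 5.14 on the LTKO GFP arrays (-0.53, SE 0.13; limma adjusted p = 0.0176). Dhx58, a regulator of these receptors, read 4.01, 4.18 and 3.99 against 3.68 and 3.40 (-0.52, SE 0.14, limma adjusted p = 0.0269, or 0.0646 with only the arrays compared). Neither overlapped between the groups, but the Ddx58 call ended without HFD GFP replicate 1 (adjusted p = 0.0609) or without LTKO GFP replicate 1 (0.11) or 2 (0.0579), and the Dhx58 call without HFD GFP replicate 1 (0.051) or 2 (0.0868) or LTKO GFP replicate 2 (0.224). Ifi204, an interferon-inducible DNA-binding protein, read 2.67, 2.69 and 2.20 against 1.78 and 1.37 (-0.94, SE 0.18; limma adjusted p = 0.00297), and its call was lost without LTKO GFP replicate 2 (-0.74, adjusted p = 0.0517). Ifi204 belongs to a family of near-identical copies that the probes may not separate, and its values lay below 3.12, the median of all genes. Zbp1, which binds nucleic acid in the Z form, read 4.93, 5.29 and 4.80 on the HFD GFP arrays and 4.98 and 4.22 on the LTKO GFP arrays, which overlap.

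The IFIT proteins bind viral RNA at its cap end. Ifit1 read 5.58, 5.22 and 5.63 on the HFD GFP arrays and 3.30 and 3.90 on the LTKO GFP arrays. Both LTKO values lay well below all 3 HFD values, with a difference of -1.88 (SE 0.36; limma adjusted p = 0.003), a 3.68-fold lower level, and the call held without any 1 array. Ifit2 and Ifit3 also lay lower on both LTKO GFP arrays, by -0.51 and -0.53, but did not pass (adjusted p = 0.123 and 0.0526).

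**Figure D3:**
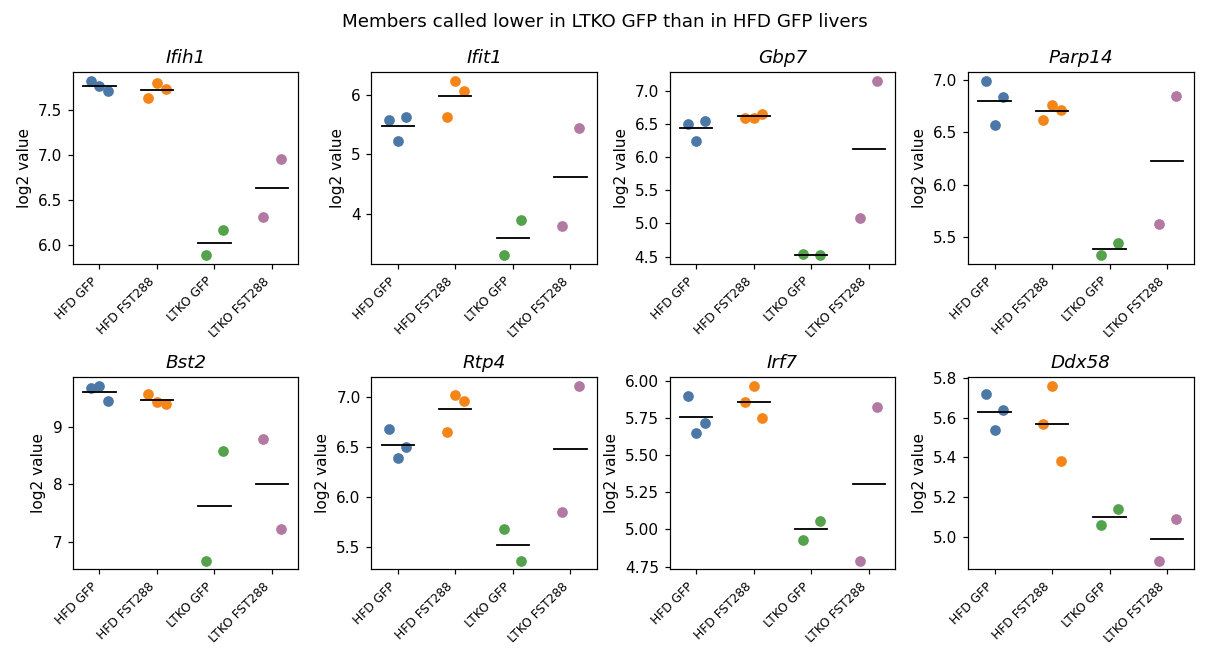
Log2 values of 8 of the 11 members called lower in LTKO GFP livers (vertical axes, each with its own range that does not start at 0), by group; points are arrays and bars are group means. Ifih1 lies between 7.64 and 7.83 on the 6 HFD arrays and between 5.88 and 6.96 on the 4 LTKO arrays, while Gbp7 reaches 7.15 on 1 LTKO FST288 array.

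Among the GTPases that act on the vacuoles of intracellular pathogens, Gbp7 and Iigp1 were called. Gbp7, a guanylate-binding protein, read 6.5, 6.24 and 6.54 on the HFD GFP arrays and 4.54 and 4.52 on the LTKO GFP arrays. The 2 LTKO values nearly coincided, far below the HFD values (-1.90, SE 0.39; limma adjusted p = 0.00477, a 3.73-fold lower level), and the call held without any 1 array but was lost with robust variances (adjusted p = 0.061). Iigp1, an immunity-related GTPase, read 9.99, 9.77 and 9.98 against 9.01 and 9.02 (-0.90, SE 0.23; limma adjusted p = 0.0217). Its call ended without HFD GFP replicate 1 (adjusted p = 0.069) or 3 (0.0664), without LTKO GFP replicate 1 (0.108) or 2 (0.0949), and with robust variances (0.12). The other members of these families, Igtp, Irgm1, Irgm2, Gbp3 and Gbp6, had differences of -0.08 to -1.02 that did not pass. Of these, all but Igtp lay lower on both LTKO GFP arrays than on any HFD GFP array, as did 19.2% of all genes. The SE of Gbp3, at 0.49, rests on the spread of all 10 arrays. Its SD was 0.16 on the HFD GFP, 0.40 on the LTKO GFP and 1.79 on the LTKO FST288 arrays, which this comparison does not use. The families hold similar copies, and probes may take up signal from more than 1.

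Parp14 adds ADP-ribose to proteins. It read 6.99, 6.57 and 6.83 on the HFD GFP arrays and 5.33 and 5.45 on the LTKO GFP arrays, without overlap. The difference was -1.41 (SE 0.25; limma adjusted p = 0.00185), a 2.65-fold lower level, and held without any 1 array. Parp9, which works in the same module, differed by -0.16 (SE 0.13; adjusted p = 0.499).

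Of the 10 other antiviral effectors, Bst2 and Rtp4 were called. Bst2, or tetherin, which holds budding virus at the cell membrane, read 9.68, 9.71 and 9.45 on the HFD GFP arrays and 6.67 and 8.57 on the LTKO GFP arrays. Its difference of -2.0 (SE 0.45; limma adjusted p = 0.00879) was set largely by 1 array: without LTKO GFP replicate 1 it was -1.04 (adjusted p = 0.131), and with robust variances the adjusted p was 0.108. Rtp4, an interferon-induced inhibitor of virus replication, read 6.68, 6.39 and 6.5 against 5.68 and 5.36 (-1.0, SE 0.26; limma adjusted p = 0.0222). The Rtp4 groups did not overlap, but the call ended without HFD GFP replicate 1 (adjusted p = 0.0764) or 3 (0.0552), without LTKO GFP replicate 1 (0.0561) or 2 (0.16), and with robust variances (0.0633). Samd9l, Xaf1, Cmpk2, Mx1, Trim30a, Rsad2, Ifi35 and Mx2 ranged from -0.74 to 0.21 and did not pass.

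Among the transcription factors, Irf7, the amplifier of type I interferon production, read 5.90, 5.65 and 5.72 on the HFD GFP arrays and 4.93 and 5.06 on the LTKO GFP arrays (-0.76, SE 0.22; limma adjusted p = 0.0375). The groups did not overlap, but leaving out 1 array in turn ended the call in 8 of 10 fits, with adjusted p from 0.0502 to 0.183 in those 8; it stayed only without LTKO FST288 replicate 1 or 2. Irf9 lay lower by -0.67 (adjusted p = 0.0504), Stat2 by -0.32 (0.338), and Irf1 had a difference of 0.13 (0.837). Of the ISG15 system, which tags proteins with a ubiquitin-like modifier, 0 of 2 members passed: Isg15 itself differed by -0.68 (SE 0.21; adjusted p = 0.0543) and Usp18, which removes the tag, by -0.38 (SE 0.30; adjusted p = 0.483). Of the OAS family, whose enzymes make the messenger that activates RNase L, 0 of 4 passed, with differences of -0.57 for Oasl1 to 0.22 for Oas3.

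**Figure D4:**
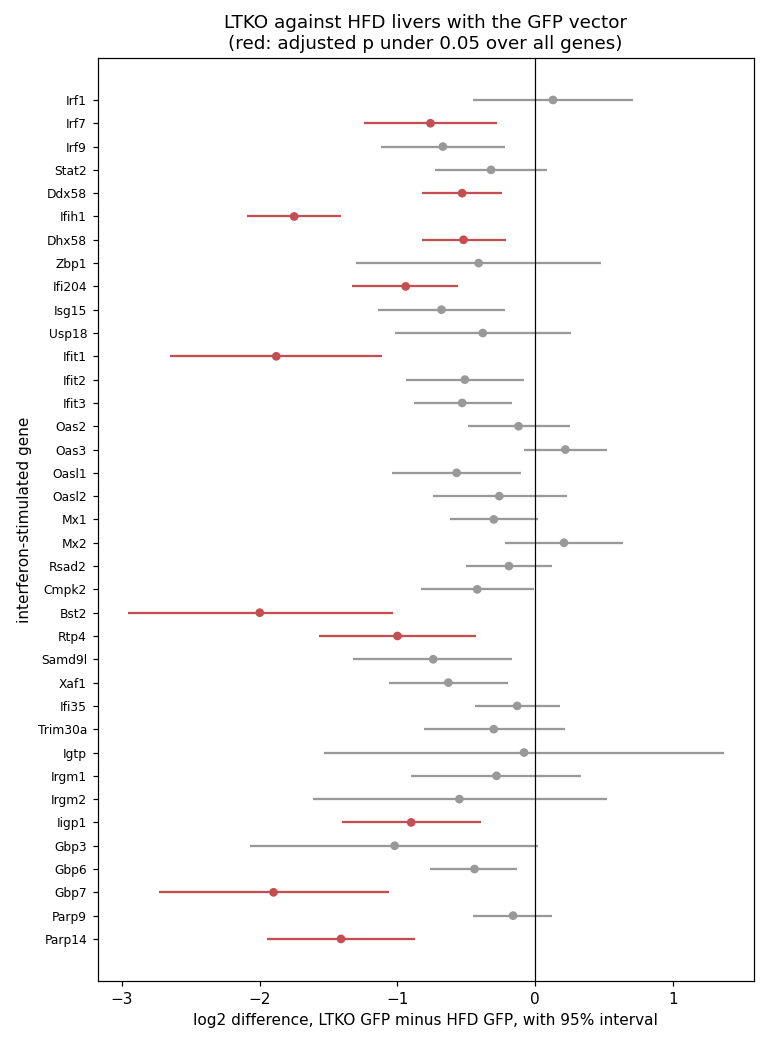
Fitted log2 difference between LTKO GFP and HFD GFP livers for the 37 members (vertical axis), with 95% intervals of the fit; red marks an adjusted p under 0.05 over all genes. The 11 red members run from -0.52 to -2.0, and 34 of the 37 points lie below 0.

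The number called depended on single arrays. Without HFD GFP replicate 1, LTKO GFP replicate 1 or LTKO GFP replicate 2 the count of members called lower was 6 in each case, or 16.2%, where 10.3%, 8.43% and 9.82% of all genes were called in either direction. With all clusters of the table tested it was 7, and the calls of Irf7 (adjusted p = 0.111), Dhx58 (0.0508), Rtp4 (0.084) and Iigp1 (0.0849) ended. Without either LTKO FST288 array, which left the difference itself as it was and changed only the estimated spread, it was 18, where 6.80% (without replicate 1) and 6.81% (without replicate 2) of all genes were called lower. No marker of an immune cell list was called in the fit of all 10 arrays: 0 of 11 Kupffer and macrophage markers and 0 of 12 T and NK cell markers passed; without either LTKO FST288 array, 1 Kupffer marker was called higher and 1 lower. Summed Kupffer levels were 9.0 to 9.57 on HFD GFP and 9.42 to 9.53 on LTKO GFP arrays. Of the 7 hepatocyte markers, 3 were called lower (42.9%; 6.40% of all genes), with a list median of -0.20; the part of this in the members' levels was not tested.

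Of 50 measured genes of interferon production and signalling, 3 were called higher and 3 lower, 6.0% each way, with a median of 0.02. These shares are near those of all genes (6.69% higher and 6.40% lower), so the count says nothing particular of the list. Irf2, a repressor and antagonist of Irf1, read 7.66, 7.59 and 7.56 on the HFD GFP arrays and 6.33 and 6.38 on the LTKO GFP arrays (-1.24, SE 0.10; limma adjusted p = 2.99e-06). Tlr3, the endosomal receptor of double-stranded RNA, was lower by -0.88 (adjusted p = 0.0115) and the kinase Tbk1 by -0.44 (adjusted p = 0.01). The ligands Ifna1 and Ifnl3 were higher by 1.02 and 0.96 and the receptor chain Ifnar2 by 0.44 (limma adjusted p = 0.00464, 0.00501 and 0.00381). The interferon alpha genes are close copies, so the Ifna1 probes may read others. Of 69 measured further interferon-induced genes, 13 were called lower (18.8%; 6.40% of all genes) and 2 higher (2.90%; 6.69% of all genes), with a median of -0.37. They included the guanylate-binding protein Gbp10, at 8.07, 7.34 and 7.83 against 4.90 and 4.37 (-3.11, SE 0.69; limma adjusted p = 0.00825), Herc6, which joins Isg15 to proteins (-1.91, adjusted p = 0.000558) and the RNA-activated kinase Eif2ak2 (-1.14, adjusted p = 6.54e-05). Tor3a, at 1.57, and Helz2, at 0.74, were higher.

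Follistatin moved no member past the threshold in HFD livers. With limma 0 of 37 members were called, where 0.577% of all genes were called higher and 0.419% lower. An unadjusted p under 0.05 was found for 6 of the 37 members and for 2672 of all 22180 genes. The median difference, FST288 minus GFP, was 0.10. The HFD FST288 arrays lay above all HFD GFP arrays in 8 members (21.6%; 9.30% of all genes) and below in 1 (2.70%; 9.11% of all genes).

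Usp18, which also damps the type I interferon receptor, had the largest difference. It read 5.77, 5.14 and 5.36 on the HFD GFP arrays and 5.94, 6.65 and 6.48 on the HFD FST288 arrays. All 3 FST288 values lay above all 3 GFP values, with a difference of 0.93 (SE 0.26; 95% interval 0.36 to 1.5; limma adjusted p = 0.138). It was called when the fit held the 6 HFD arrays alone (adjusted p = 0.0244), or lacked LTKO FST288 replicate 1 (0.0282) or 2 (0.0287). Isg15 read 5.16, 4.62 and 4.95 with GFP and 5.03, 5.52 and 5.47 with FST288 (0.43; 95% interval 0.01 to 0.84; adjusted p = 0.39). Ifit1 read 5.63, 6.24 and 6.07 on the FST288 arrays, against 5.22 to 5.63 with GFP (0.50; interval -0.19 to 1.19; adjusted p = 0.594). For Usp18, Isg15 and Ifit1 the highest values were on HFD FST288 replicates 2 and 3, the arrays with acinar transcripts; the part of these in the result was not tested.

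Ifit3 lay the other way, at 3.93, 4.23 and 3.76 with GFP and 3.32, 3.45 and 3.54 with FST288. The groups did not overlap, and the difference was -0.54 (SE 0.15; 95% interval -0.85 to -0.22; limma adjusted p = 0.13). The RNase L activator Oas3 and the radical enzyme Rsad2 each differed by 0.35, with adjusted p of 0.252 and 0.272. The GTPases had small differences, several with wide intervals, such as 0.31 (-0.99 to 1.60) for Igtp and 0.18 (-0.57 to 0.92) for Gbp7. That of Gbp6 was narrower (-0.03, interval -0.31 to 0.26). These intervals rest on the spread of all 10 arrays. Within the HFD groups the SD of Igtp was 0.08 with GFP and 0.06 with FST288, and that of Gbp7 0.16 and 0.04. Igtp, Iigp1 and Gbp7 were among the 8 members (21.6%, against 9.30% of all genes) whose FST288 arrays lay above all GFP arrays.

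No member passed in LTKO livers, where the FST288 arrays differed: the median over the members, against the LTKO GFP mean, was 0.07 on replicate 1 and 0.75 on replicate 2. With limma 0 of 37 members were called, where 0.0992% of all genes were called higher and 0.0676% lower. An unadjusted p under 0.05 was found for 16 of the 37 members and for 2213 of all 22180 genes. The median difference was 0.48. Both FST288 arrays lay above both GFP arrays in 15 members (40.5%; 16.8% of all genes) and below both in Oas3 and Oasl2 (5.41%; 21.1% of all genes). Without LTKO FST288 replicate 2 the median was 0.07, with 0 members called, where 0.131% of all genes were called higher. Without replicate 1 it was 0.75, with 15 members called higher, where 0.920% of all genes were. That fit leaves 1 array in the group, whose spread is assumed to be that of the others.

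Igtp, an immunity-related GTPase, read 5.57 and 5.07 on the LTKO GFP arrays and 5.94 and 9.63 on the LTKO FST288 arrays. On the 6 HFD arrays it lay between 5.32 and 5.77, so 1 of the 10 arrays stood far above the rest, and the fitted difference of 2.47 had an SE of 0.74 (limma adjusted p = 0.271). Irgm2, whose promoter stretch is nearly that of Igtp, read 5.79 and 5.37 with GFP and 5.59 and 8.22 with FST288. Its replicate 1 lay between both GFP values. Irgm1, a regulator of the family, read 4.80 and 4.79 with GFP and 5.04 and 6.44 with FST288, and Iigp1 read 9.01 and 9.02 with GFP and 9.37 and 10.61 with FST288. For these last 2 genes both FST288 arrays lay above both GFP arrays, replicate 1 by a small margin.

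The guanylate-binding proteins split in the same manner. Gbp7 read 4.54 and 4.52 with GFP and 5.08 and 7.15 with FST288, and Gbp3 read 2.96 and 2.39 with GFP and 2.64 and 5.17 with FST288. Gbp6 did not follow: it read 1.58 and 1.70 with GFP and 2.42 and 2.37 with FST288, 2 arrays that nearly coincided (0.75, SE 0.16; limma adjusted p = 0.121). Gbp6 lay below the median of all genes, where array values are least certain.

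Replicate 2 of LTKO FST288 lay over 1 log2 unit above replicate 1 in 14 of the 37 members (37.8%), as did 0.803% of all genes. By role, its median excess over replicate 1 was 2.07 for the guanylate-binding proteins, 2.02 for the immunity-related GTPases, 0.96 for the transcription factors and 0.12 for the OAS family. Irf1, the factor induced by interferon gamma, read 4.65 and 5.88 on replicates 1 and 2, and Zbp1 read 4.67 and 6.68. Ifit1 read 3.80 and 5.44, so replicate 2 was within the range of the HFD GFP arrays. Bst2 went the opposite way, at 8.78 and 7.22. Replicate 2 was the highest of the 4 LTKO arrays in 28 members (75.7%; 23.3% of all genes) and the highest of all 10 arrays in 12 (32.4%; 10.4% of all genes).

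**Figure D5:**
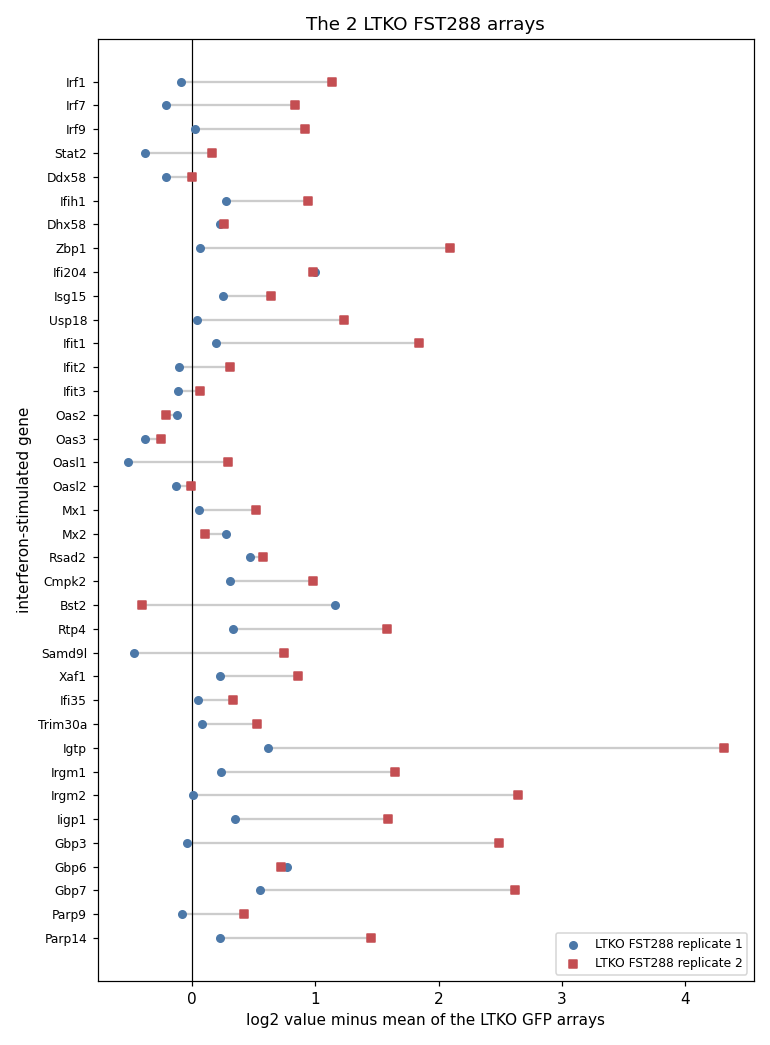
Log2 value of each of the 37 members (vertical axis) on LTKO FST288 replicate 1 (circles) and replicate 2 (squares), minus the mean of the 2 LTKO GFP arrays (horizontal axis). The circles have a median of 0.07 and the squares of 0.75; Igtp, Irgm2, Gbp7 and Gbp3 lie farthest apart, and Bst2 lies in the opposite order.

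Macrophage transcripts were higher on that array. Against the LTKO GFP arrays, the median difference of the 11 Kupffer and macrophage markers was 1.18 without replicate 1 and 0.15 without replicate 2. The median of all genes was -0.02 in both cases. The summed monocyte and neutrophil level was 8.58 on replicate 2 and 7.25 on replicate 1, and the summed T and NK cell level was 6.69 and 6.26. The T and NK cell markers and the monocyte and neutrophil markers had median differences of 0.21 and 0.58 without replicate 1. Without replicate 2 these were 0.05 and -0.08. Cd3g, a chain of the T cell receptor complex, read 4.51 and 2.96. It was picked from the 12 T and NK cell markers after its values were seen. In the fit with both arrays these markers had a median difference of 0.14, and 2 of them lay below 0. Cxcl9, a chemokine induced by interferon gamma, read 9.12 on replicate 2 and 5.82 on replicate 1, while Ifng itself read 2.23 and 2.15. Both Ifng values lay below 3.12, the median of all genes, where array values are least certain. The part of the immune cell transcripts in the members' levels was not tested.

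The difference between the vector effects in LTKO and HFD livers was called for Ifi204 alone (1 of 37 members, or 2.70%; 0.117% of all genes were called higher and 0.0992% lower). Ifi204 read 2.29, 1.97 and 2.01 on the HFD FST288 arrays, against 2.67, 2.69 and 2.20 with GFP, a difference of -0.43 (SE 0.16). On the LTKO arrays it read 2.58 and 2.55 with FST288, against 1.78 and 1.37 with GFP, a difference of 0.99 (SE 0.20). Both LTKO FST288 arrays lay above both GFP arrays, and neither vector effect passed alone (limma adjusted p = 0.278 and 0.0869). The vector effects differed by 1.42 (SE 0.25; limma adjusted p = 0.0455). Leaving out 1 array in turn ended the call in 6 of 10 fits: without HFD GFP replicate 1 (adjusted p = 0.0969) or 2 (0.0983), HFD FST288 replicate 2 (0.146) or 3 (0.134), LTKO GFP replicate 2 (0.126) or LTKO FST288 replicate 2 (0.0879). The Ifi204 call also ended without an intensity trend (0.0899), after quantile normalization (0.0555), with clusters of a gene averaged (0.0503) and with all clusters tested (0.169). Over all members the count rested on 1 array: it was 12 without LTKO FST288 replicate 1, where 0.902% of all genes were called higher, and 0 without replicate 2, where 0.126% were. The median over the members was 0.46. Averaged over both backgrounds, FST288 against GFP gave 0 members called with limma (0.320% of all genes higher, 0.302% lower). An unadjusted p under 0.05 was found for 16 of the 37 members and for 2075 of all 22180 genes. The median of the members in this averaged comparison was 0.22, and 0.42 without LTKO FST288 replicate 1.

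With FST288 in both, 5 of the 37 members were called lower in LTKO than in HFD livers and 0 higher, which is 13.5% of the members, where 5.29% of all genes were called lower and 5.05% higher. This comparison and the one with GFP share no array, but all 10 arrays share 1 estimate of the spread. Ifih1 was lower in both. It read 7.64, 7.80 and 7.74 on the HFD FST288 arrays and 6.31 and 6.96 on the LTKO FST288 arrays, with no overlap and a difference of -1.10 (SE 0.16; limma adjusted p = 0.000376) that held without any 1 array. The related sensor Ddx58 read 5.57, 5.76 and 5.38 against 4.88 and 5.09 (-0.58, SE 0.13; limma adjusted p = 0.0129), a call lost without HFD FST288 replicate 2 (adjusted p = 0.0569) or LTKO FST288 replicate 1 (0.124).

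The other 3 were more dependent on single arrays. Ifit1 read 5.63, 6.24 and 6.07 on the HFD FST288 arrays against 3.80 and 5.44 on the LTKO FST288 arrays (-1.36, SE 0.36; limma adjusted p = 0.0262), and was lost without HFD FST288 replicate 2 (0.0925) or 3 (0.0834) or LTKO FST288 replicate 1 (-0.54, 0.311), with robust variances (0.106), with only the arrays compared (0.0713) and with all clusters tested (0.11). Oasl1, an OAS-like protein without enzyme activity, read 4.20, 4.33 and 4.18 against 3.00 and 3.82 (-0.82, SE 0.22; limma adjusted p = 0.027), and was lost without any 1 HFD FST288 array (adjusted p = 0.0563, 0.0862 and 0.0626 for replicates 1, 2 and 3) or LTKO FST288 replicate 1 (0.332), with only the arrays compared (0.0529) and with all clusters tested (0.0929). Oasl2 read 3.35, 3.93 and 3.18 against 2.67 and 2.79 (-0.75, SE 0.22; limma adjusted p = 0.0495), and was lost in 8 of the 10 such fits, with adjusted p from 0.0576 to 0.21. The Oasl2 call also ended with the replicate number as a block (-0.78, adjusted p = 0.0929), without an intensity trend (0.0571), with array weights (0.0644), after quantile normalization (0.0564), with clusters of a gene averaged (0.0508), with only the arrays compared (0.0702) and with all clusters tested (0.138). The mean of Oasl2 over all 10 arrays was 3.07, below 3.12, the median of all genes. None of the 5 overlapped between the groups; in all, 10 of the 37 members (27.0%) lay lower without overlap, as did 18.6% of all genes. Without both HFD FST288 arrays that carried acinar transcripts, 1 member was called (2.70%; 4.23% of all genes in either direction), and without HFD FST288 replicate 2 alone also 1 (2.70%; 7.72% of all genes).

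The LTKO FST288 arrays disagreed here as well. Replicate 1 lay below all 3 HFD FST288 arrays in 28 of the 37 members (75.7%; 31.1% of all genes), and replicate 2 in 10 (27.0%; 30.9% of all genes). Without replicate 2, 14 members were called lower, with a median of -0.57, where 3.68% of all genes were called lower; they included Gbp7 at -1.53, Irf7 at -1.07, Parp14 at -1.07 and Rtp4 at -1.03. Without replicate 1, 8 members were called higher, among them Igtp at 3.92, Irgm2 at 1.92 and Zbp1 at 1.53, and 2 lower, Bst2 at -2.25 and Ifih1 at -0.77, where 4.49% of all genes were called higher and 3.97% lower. With both arrays the median was -0.20. In the fit with both arrays 9 of the 11 Kupffer and macrophage markers were called higher, where 5.05% of all genes were. The median difference of these markers was 1.45 without replicate 1 and 0.46 without replicate 2. Their part in the members' levels was not tested.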

How the data were processed

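Per the labels, total RNA of each of 10 liver samples was hybridised to 1 array. The authors' deposited values are log2 levels; the submitters' processing notes name RMA and Affymetrix Expression Console, with no version given, and log2 is read from RMA and the range of 0.64 to 13.21. Of 41345 clusters, 23521 carried 1 symbol and gave 22180 genes; 1814 with several symbols and 16010 unlisted were left out. Dim genes were kept. The number of arrays limits the precision.

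A group-means model of all 10 arrays was fitted with limma 3.58.1 in R 4.3.3, with eBayes and an intensity trend (residual degrees of freedom 6, prior 7.155). All 6 contrasts were adjusted by Benjamini-Hochberg over 22180 genes, and tests were two-sided. The procedure was tested on simulated data with independent normal noise and, for each gene, the same spread in every group. No simulated array stood apart from its group, so that test does not cover such an array. Members and lists were chosen with earlier results of these data known. Named members were those called, the 3 smallest p in each direction of each contrast, and, in each role, the brightest and the one with the widest group means; of the other lists, called genes were eligible. The rule does not cover Marco, Cd3g, Cxcl9 and Ifng, or members given as values for completeness of a role, which were chosen after their values were seen. The 13 alternatives tried changed the arrays fitted, moderation, weights, normalization, filter, cluster choice, threshold and replicate block. Promoter windows were searched for both motifs on both strands.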

Additional observations from a re-analysis of the deposited data

Results flagged for a closer look

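The vector effect on Ifi204 differed between LTKO and HFD livers by 1.42 on the log2 scale by a test of the difference itself (SE 0.25; limma adjusted p = 0.0455). Ifi204 lay below the median of all genes, and leaving out 1 array in turn ended the call in 6 of 10 fits.

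The vector effect on Ifnl3, an interferon lambda gene of the signalling list, differed by -1.75 (SE 0.28; limma adjusted p = 0.028). Ifnl3 read 4.39 and 4.88 on the LTKO GFP arrays and 2.88 and 3.29 on the LTKO FST288 arrays, a difference of -1.55 (SE 0.21; limma adjusted p = 0.0142). On the HFD arrays it read 3.51, 3.78 and 3.75 with GFP and 3.60, 4.02 and 4.01 with FST288. The interferon lambda genes are close copies that the probes may not separate.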

How the results depend on the processing

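The limits are 2 or 3 arrays in a group and 1 LTKO FST288 array that set the spread of many members. Of the values of single named members under the alternatives, 884 kept their direction and side of the threshold, 91 lost the call and 14 gained one; Oas2 with FST288 in LTKO livers ranged from -0.35 to 0.02, reversing without LTKO GFP replicate 1. The cause of these changes was not tested. Leaving out 1 array gave 0 to 1 members called for FST288 in HFD livers, 0 to 15 in LTKO livers (median 0.07 to 0.75), 0 to 14 averaged (median 0.12 to 0.42), 0 to 12 for the difference of vector effects (median 0.04 to 0.74), 6 to 18 for LTKO against HFD with GFP (median -0.57 to -0.40), and 1 to 14 with FST288 (median -0.57 to 0.08). Fitting only the arrays compared gave 1 member called for FST288 in HFD livers (2.70%; 1.85% of all genes) and 3 for LTKO against HFD with FST288. At an adjusted p under 0.1, the counts were 1 for FST288 in LTKO livers (0.261% of all genes in either direction) and 1 averaged (0.965%). They were 17 for LTKO against HFD with GFP (45.9%, against 17.7% of all genes) and 10 with FST288 (27.0%, against 13.6%). Under 0.01 the counts were 6 and 1 for the last 2 comparisons, and 0 for the difference of vector effects. That difference also had 0 without an intensity trend, after quantile normalization, over genes above the median level, with clusters of 1 gene averaged, with all clusters tested, and without both acinar-rich arrays. Testing all clusters gave 7 for LTKO against HFD with GFP and 2 with FST288; genes above the median level gave 8 with FST288, and leaving out both acinar-rich arrays gave 1. For LTKO against HFD with FST288 the share of members called was near or below that of all genes under several of these: 8.11% against 9.33% with only the arrays compared, 2.70% against 6.12% at 0.01, 5.41% against 5.13% with all clusters 25.8% against 23.5% above the median level and 2.70% against 4.23% without both acinar-rich arrays. With GFP it was 16.2% against 7.51% at 0.01 and 18.9% against 7.63% with all clusters. Same-numbered arrays correlated between -0.068 and 0.034. These values give no sign of pairing but cannot exclude it, since the deviations of 2 arrays in a group are equal and opposite. The replicate block gave 0, 0, 0, 1, 13 and 4 members called in the order above.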

Other observations

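The members without a cluster of their own lay on clusters shared with named neighbours or copies, so their values cannot be assigned to 1 gene. Tgtp1 and Tgtp2, near-identical immunity-related GTPases, lay on a pair of clusters. The brighter on LTKO FST288 replicate 2 read 6.55 there and 2.26 on replicate 1. It read 1.93 and 2.00 on the LTKO GFP arrays and 1.86 to 3.04 on the HFD arrays. The other rose less, with 3.56 on LTKO FST288 replicate 2 and 2.25 on replicate 1. That cluster read 2.03 and 2.51 on the LTKO GFP arrays and 2.02 to 2.56 on the HFD arrays. The clusters of Gbp2 with Gbp2b and of Ifi47 with Olfr56 read 5.51 and 4.29 on replicate 2 and 3.35 and 2.47 on replicate 1. The cluster of Dtx3l with Parp9 read 6.42, 6.36 and 6.48 on the HFD GFP arrays and 5.68 and 6.13 on the LTKO GFP arrays (-0.52, SE 0.16; limma adjusted p = 0.094 over all clusters). The cluster of Oas1a with Oas1g read 2.35 to 2.55 on the HFD arrays and 2.71 to 3.40 on the LTKO arrays, with no overlap.

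Outside the list, Ifitm3, which blocks the entry of viruses into cells, was the 1 further interferon-induced gene of 69 called for FST288 averaged over both backgrounds. It read 10.29, 10.24 and 10.26 on the HFD GFP arrays and 10.48, 10.59 and 10.44 on the HFD FST288 arrays, and 9.42 and 9.56 on the LTKO GFP arrays and 9.76 and 10.13 on the LTKO FST288 arrays. The arrays of the 2 vectors did not overlap within either background (0.35, SE 0.07; limma adjusted p = 0.0405).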
